A study of Mus musculus with 5 samples.

Results

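Acod1, Nos2, Arg1, Ass1, Slc7a2, Gch1 and Odc1 are the genes of itaconate synthesis, nitric oxide synthesis and arginine use that macrophages are best known for, and they were read from every probe set that the platform annotation assigns to one of these symbols. The rule found 8 probe sets for the 7 genes among 10833 probe sets with 1 gene symbol, with 2 for Acod1 (told apart here by their suffixes, s_at and at) and 1 for each of the others. All 8 passed the filter on dim signals and were among the 6675 probe sets tested. RNA of peritoneal macrophages from mice was hybridised to 5 Affymetrix arrays (MG-U74Av2), and the series asks what ethanol does to the genes that poly IC induces. Poly IC (polyinosinic-polycytidylic acid) is a man-made RNA duplex that stands in for viral RNA. Poly IC plus ethanol had 2 arrays (poly IC 0.1 mg per mouse, ethanol 6 g per kg), poly IC had 2 (0.1 mg per mouse for replicate 2, no dose stated for replicate 1) and the naive control had 1. The mice of all 4 treated samples were C57Bl/6 x C3H F1 females aged 12 weeks, and each sample was a pool, whose number of mice is not given in the sources used here. The label of the naive sample gives no strain, sex or age, so such a difference and the effect of poly IC cannot be told apart. No sample had ethanol alone, so a changed response to poly IC and an effect of ethanol by itself cannot be told apart either.

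In activated macrophages, arginine enters through cationic amino acid carriers and is then split between enzymes. Nitric oxide synthase turns it into nitric oxide and citrulline, with tetrahydrobiopterin as cofactor, and citrulline can be rebuilt into arginine. Arginase instead gives urea and ornithine, from which polyamines are made. Itaconate is formed beside the citric acid cycle by decarboxylation of cis-aconitate, and is known for blocking succinate dehydrogenase and for acting on bacteria.

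Signals had been scaled by the authors to a common target, and the median signal of an array lay between 768.6 and 902. The brightest of 19 unspiked control probe sets read 299.6 to 443.8 by array and served as the level below which a fold is only a bound. Ratios of 3' to 5' actin probe sets were 1.04 to 1.15. The 3' probe set for small-subunit ribosomal RNA read 8225 and 19415 with poly IC plus ethanol, 5113 and 66548 with poly IC and 7277 on the naive array, so poly IC replicate 2 stood apart in that measure. All 7 macrophage markers were above that control on every array. Every difference was taken between values of log2(signal + 250), an offset that shrinks the change of dim genes, and p-values are from limma with Benjamini-Hochberg adjustment over the 6675 probe sets, a call being an adjusted p under 0.05. They measure the spread between pools, and the naive array, which has no replicate, was assumed to vary like the others. The number of arrays limits the precision of every value. In these bulk samples fewer cells of a type and less RNA per cell cannot be told apart.

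Acod1, the mitochondrial enzyme that makes itaconate, was below the unspiked control on the naive array, rose strongly with poly IC, and was lower when ethanol was given as well. The 250 bases upstream of its annotated start are shown because Acod1 had the widest change among the 7 genes. They lie on mouse GRCm38.p6 at chr14:103046762-103047011, plus strand, from the RefSeq promoter table. Capitals mark a TATAAA match at positions -28 to -23, counted from the first transcribed base.
Acod1: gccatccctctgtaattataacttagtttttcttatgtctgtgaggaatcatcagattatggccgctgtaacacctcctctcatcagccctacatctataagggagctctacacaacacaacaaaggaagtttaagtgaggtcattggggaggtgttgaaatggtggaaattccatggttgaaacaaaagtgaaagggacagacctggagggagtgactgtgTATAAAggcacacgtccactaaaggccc
Its s_at probe set, whose suffix marks probes shared by several transcripts, read 55078 and 48857 with poly IC plus ethanol, 76912 and 88975 with poly IC and 229.6 on the naive array. The at probe set read 6048 and 4575 with poly IC plus ethanol, 11447 and 14784 with poly IC and 45.2 on the naive array. On both probe sets the poly IC arrays were highest and the ethanol arrays next, with no overlap, and the naive signal was below the unspiked control. With poly IC the rise over naive was at least 274-fold on the first (adjusted p = 4.83e-09) and at least 43.1-fold on the second (adjusted p = 3.65e-07). With poly IC plus ethanol it was at least 172-fold (adjusted p = 1.15e-08) and at least 17.4-fold (adjusted p = 2.98e-06). Between the treated groups the first fell to 51967 ± 4399 with ethanol, against 82944 ± 8530 with poly IC alone (SD, n = 2 each), a log2 difference of -0.67 (SE 0.13, adjusted p = 0.0134). The second fell to 5311 ± 1041, against 13116 ± 2359 with poly IC alone, a log2 difference of -1.27 (SE 0.20, adjusted p = 0.00652). The 95% intervals were -0.95 to -0.39 and -1.71 to -0.82, and whether the probe sets differ in this was not tested. Of all tested probe sets, 5.38% had a lower difference than the s_at probe set and 0.794% a lower one than the at probe set. Without poly IC replicate 2 both falls missed the threshold, at -0.57 and -1.09. Both also missed it with eBayes without the trend (adjusted p = 0.112 and 0.0647). Over all alternatives the adjusted p ran from 0.000216 to 0.155 for the first and from 1.79e-06 to 0.0784 for the second.

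**Figure D1:**
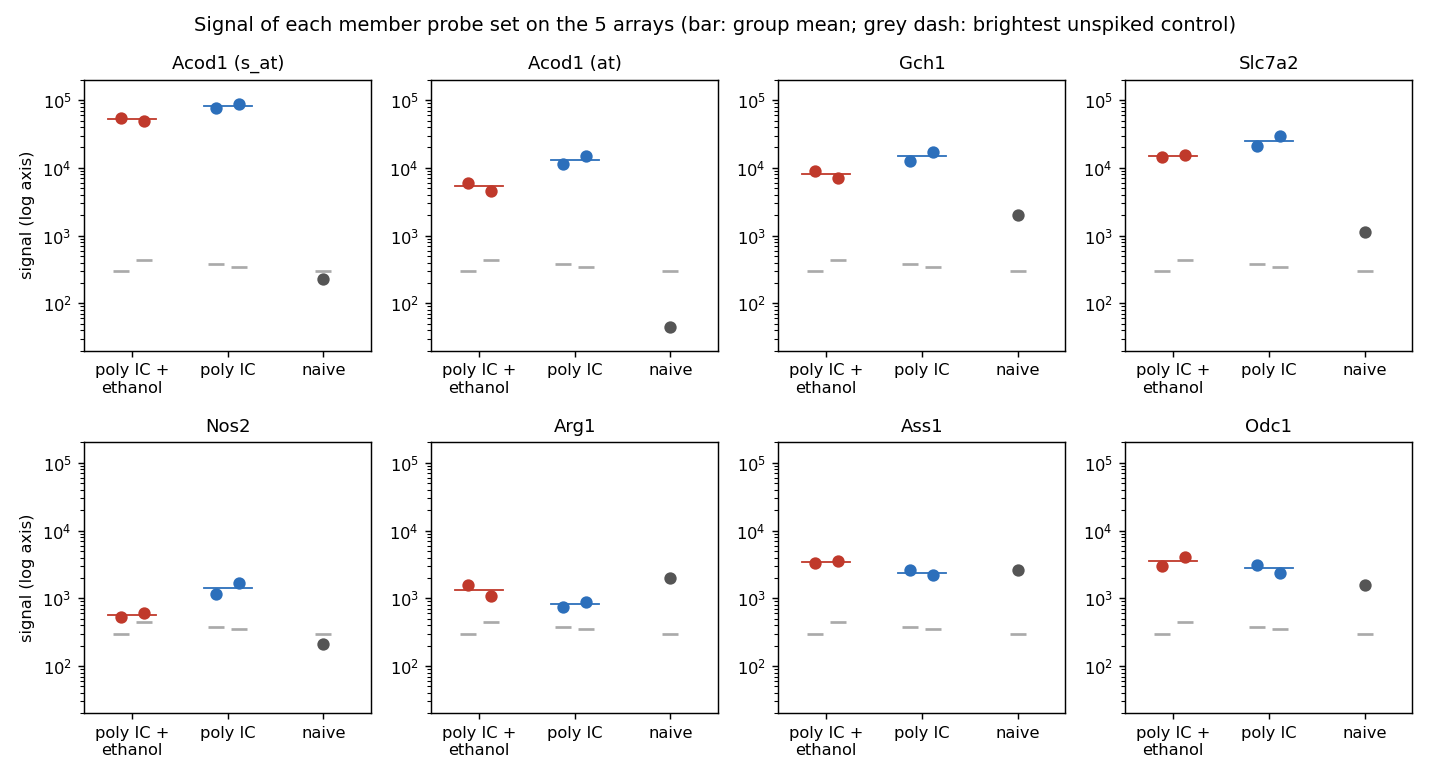
Signal (log axis) of the 8 probe sets on each array, with points for single arrays in poly IC plus ethanol, poly IC and naive order, a bar for the mean of 2 arrays and a grey dash for the brightest unspiked control of the same array. Acod1, Gch1, Slc7a2 and Nos2 are highest on the poly IC arrays, Arg1 is lowest there, and Acod1 and Nos2 lie below the control on the naive array.

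Gch1, GTP cyclohydrolase, is the rate-limiting enzyme of tetrahydrobiopterin synthesis and so supplies the cofactor of nitric oxide synthase. Its upstream bases are shown beside those of Acod1 because both genes rose with poly IC and were lower with ethanol. They lie at chr14:47189414-47189663 on GRCm38.p6, minus strand, printed in the direction of transcription, with a match to TATAAA on the opposite strand in capitals at positions -188 to -183.
Gch1: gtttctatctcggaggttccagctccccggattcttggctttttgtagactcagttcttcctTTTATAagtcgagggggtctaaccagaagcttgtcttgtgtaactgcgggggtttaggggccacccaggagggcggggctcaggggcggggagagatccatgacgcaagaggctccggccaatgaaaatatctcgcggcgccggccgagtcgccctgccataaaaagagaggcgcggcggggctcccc
Gch1 read 9140 and 7070 with poly IC plus ethanol, 12542 and 17159 with poly IC and 1999.5 on the naive array, and no groups overlapped. Poly IC raised it by 2.73 log2 units over naive (SE 0.23, adjusted p = 3.19e-05), and poly IC plus ethanol by 1.88 (SE 0.23, adjusted p = 0.000561). Between the treated groups it fell to 8105 ± 1464 with ethanol, against 14850 ± 3265 with poly IC alone (SD, n = 2 each), a log2 difference of -0.85 (SE 0.19, adjusted p = 0.0279). Its order was thus poly IC, poly IC plus ethanol, naive, with each neighbouring pair called. Without poly IC replicate 2 the fall with ethanol was -0.63 and not called. It was also not called with no filter (adjusted p = 0.0767) or with eBayes without the trend (adjusted p = 0.119).

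Slc7a2, the cationic amino acid carrier CAT2, brings arginine into the cell. It read 14434 and 15741 with poly IC plus ethanol, 21387 and 29133 with poly IC and 1114 on the naive array, again with no overlap. It rose by 4.21 log2 units with poly IC over naive (SE 0.20, adjusted p = 6.19e-07), and 0.524% of tested probe sets rose further. It rose by 3.49 with poly IC plus ethanol over naive (SE 0.20, adjusted p = 3.4e-06). Between the treated groups it fell to 15087 ± 924 with ethanol, against 25260 ± 5477 with poly IC alone (SD, n = 2 each), a log2 difference of -0.72 (SE 0.17, adjusted p = 0.0304). The fall was not called without poly IC replicate 2 (-0.50) or with quantile normalization (-0.60, adjusted p = 0.051). Nor was it called with no filter (adjusted p = 0.0789) or with eBayes without the trend (adjusted p = 0.129).

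Nos2, the inducible nitric oxide synthase, was highest with poly IC, and its difference with ethanol missed the threshold. It read 527.6 and 605.7 with poly IC plus ethanol, 1176 and 1695 with poly IC and 212 on the naive array, which was below the unspiked control. The groups did not overlap. With poly IC it rose at least 4.68-fold over naive (adjusted p = 0.00508), a call lost without poly IC replicate 2 (log2 difference 1.63, adjusted p = 0.0641, the highest of its alternatives, which went down to 1.72e-05). With poly IC plus ethanol the bound was 1.87 times the naive level, but the log2 difference of 0.82 was not called (SE 0.37, 95% interval -0.01 to 1.65, adjusted p = 0.178). Between the treated groups Nos2 averaged 566.7 ± 55.2 with ethanol and 1436 ± 367 with poly IC alone (SD, n = 2 each), a log2 difference of -1.03 (SE 0.30, 95% interval -1.71 to -0.35) that missed the threshold at an adjusted p of 0.0682. It was called without poly IC plus ethanol replicate 2 (-1.10, adjusted p = 0.0411), with quantile normalization (-1.19, adjusted p = 0.0431) and with only the compared arrays in the fit (adjusted p = 0.0457), in a range from 0.0411 to 0.466. In its order, poly IC, poly IC plus ethanol, naive, no neighbouring groups were called and only the outer ones were.

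Arg1, the cytosolic arginase that competes with nitric oxide synthase for arginine and is a mark of alternatively activated macrophages, had the opposite order. It read 1559 and 1091 with poly IC plus ethanol, 754.4 and 879.9 with poly IC and 2022 on the naive array, with no overlap. It fell by 1.09 log2 units with poly IC against naive (SE 0.29, adjusted p = 0.0197). The fall was no longer called without poly IC replicate 1 (-1.01, adjusted p = 0.0782), without replicate 2 (-1.18, adjusted p = 0.0514), with no filter (adjusted p = 0.0735), with median-centred arrays (-0.90, adjusted p = 0.0537) and with quantile normalization (-0.92, adjusted p = 0.0576), in a range from 0.00132 to 0.0782. With poly IC plus ethanol it averaged 1325 ± 331 and with poly IC alone 817.2 ± 88.7 (SD, n = 2 each), a log2 difference of 0.55 (SE 0.24, 95% interval 0.01 to 1.09) that was not called (adjusted p = 0.195). Against naive, poly IC plus ethanol gave -0.55 (SE 0.29, adjusted p = 0.253).

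Ass1, argininosuccinate synthase, joins citrulline to aspartate on the way back to arginine. It read 3347 and 3575 with poly IC plus ethanol, 2577 and 2176 with poly IC and 2635 on the naive array, so that the ethanol arrays were highest and the naive array lay just above the poly IC arrays. None of its comparisons was called. Poly IC against naive gave -0.14 (SE 0.21, 95% interval -0.62 to 0.34, adjusted p = 0.668), which turned to 0.05 with median-centred arrays and to 0.04 with quantile normalization. Poly IC plus ethanol against poly IC gave 0.50 (SE 0.17, 95% interval 0.11 to 0.89, adjusted p = 0.111), and against naive 0.36 (SE 0.21, adjusted p = 0.296). Its upstream bases are shown for contrast with those of the induced genes. They lie at chr2:31470020-31470269 on GRCm38.p6, plus strand, and have a CACGTG match in capitals at positions -36 to -31.
Ass1: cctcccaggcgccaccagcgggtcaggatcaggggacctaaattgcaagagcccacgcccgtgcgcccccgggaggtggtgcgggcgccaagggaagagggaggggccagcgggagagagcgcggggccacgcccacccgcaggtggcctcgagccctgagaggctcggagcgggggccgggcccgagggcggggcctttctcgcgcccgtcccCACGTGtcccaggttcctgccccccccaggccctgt
The promoter table held 4 of the 7 genes, Acod1, Ass1, Gch1 and Odc1, and 5 motifs were searched on both strands of the 250 upstream bases. TATAAA and CACGTG are the TATA box and E-box letters. TATAAA was found in 12.4% of all 32851 entries and CACGTG in 6.02%. None of the 4 held the ISRE-like motif (interferon-stimulated response element, 2.98% of entries), the GAS-like TTCNNNGAA (gamma-activated site, 7.02%) or the kappa B-like motif (0.356%), and the Odc1 window held no match to any of the 5. Each motif was searched as a fixed pattern, and the ISRE-like and kappa B-like patterns were 10 bases long. Shorter or variant sites of these kinds were not searched. The lack of a match thus does not mean that such sites are absent, in the Acod1 window or in the others. Matches are a description of the searched patterns only. The GC content was 44.4% for Acod1, 59.2% for Gch1, 75.6% for Ass1 and 80% for Odc1.

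Odc1, ornithine decarboxylase, takes the first step from ornithine to the polyamines. It read 2992 and 4087 with poly IC plus ethanol, 3150 and 2383 with poly IC and 1589 on the naive array. The treated groups overlapped, and both lay above naive. Poly IC plus ethanol raised it by 1.03 log2 units over naive (SE 0.26, adjusted p = 0.0265), a call lost with no filter (adjusted p = 0.0752) and with eBayes without the trend (adjusted p = 0.0801) in a range from 0.000219 to 0.0801. Poly IC gave 0.70 over naive (SE 0.26, adjusted p = 0.069). It was called with median-centred arrays (0.89, adjusted p = 0.0283), with quantile normalization (0.87, adjusted p = 0.0326) and with the 60th percentile filter (adjusted p = 0.0459). Calls in fits that leave out ethanol arrays rest on a changed estimate of spread, since the difference there stayed at 0.70. Without poly IC replicate 1 it was 0.52 and without replicate 2 it was 0.89, and neither was called. Between the treated groups the difference was 0.33 (SE 0.21, 95% interval -0.15 to 0.80, adjusted p = 0.391).

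**Figure D2:**
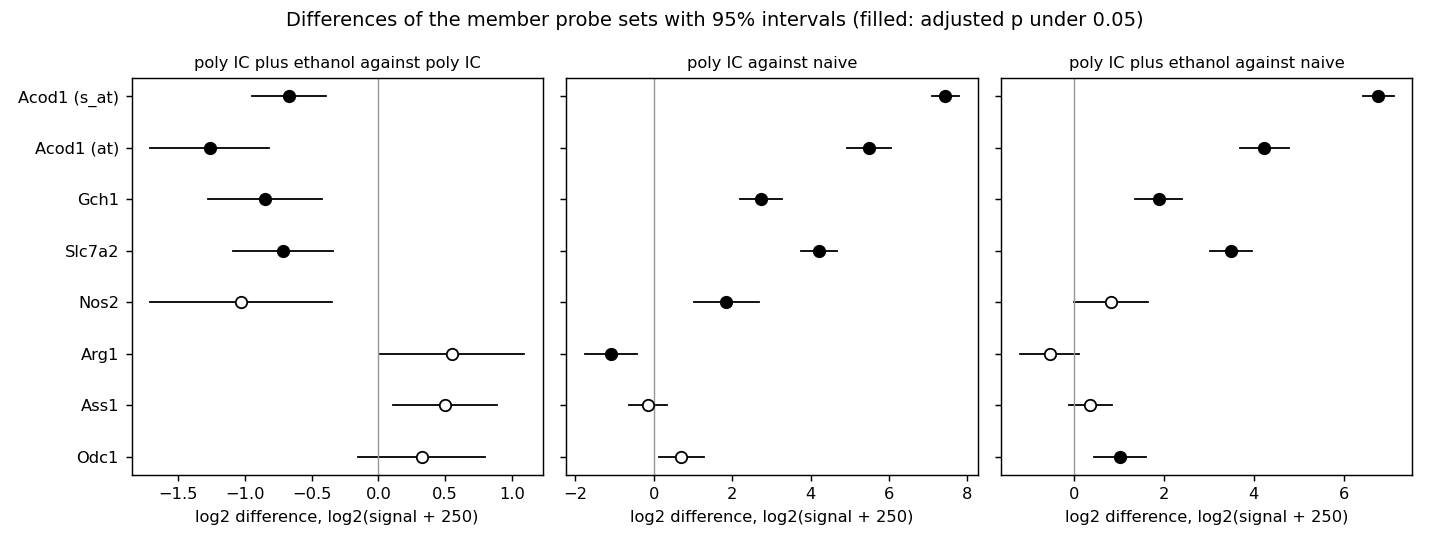
Log2 differences on the log2(signal + 250) scale (x axis) of the 8 probe sets in the 3 comparisons, with 95% intervals; filled points had an adjusted p under 0.05. Acod1, Gch1 and Slc7a2 lie right of 0 against naive and left of 0 for ethanol against poly IC, while Arg1, Ass1 and Odc1 lie right of 0 for ethanol against poly IC with no call.

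Counted together, 4 of the 8 probe sets (both of Acod1, Gch1 and Slc7a2) fell with poly IC plus ethanol against poly IC and none rose, where 8.99% of tested probe sets were called, 4.15% lower and 4.84% higher. Their median difference was -0.69, and that of all tested probe sets was 0.07. On 5 probe sets both ethanol arrays were below both poly IC arrays (21.2% of tested probe sets), on 2 both were above (32.3%), and Odc1 overlapped. Against naive, poly IC raised 5 (11.4% of tested probe sets) and lowered 1, Arg1 (18.7%), where 30.0% were called in all, with a median of 2.29 where all tested probe sets had -0.14. Both poly IC arrays were above naive on 6 (35.8%) and below it on 2 (50.7%). Poly IC plus ethanol against naive raised 5 (7.96%) and lowered none (7.45%), where 15.4% were called in all, with a median of 1.46 against -0.09 over all. Both ethanol arrays were above naive on 7 (33.5%) and below it on 1, Arg1 (46.7%). Acod1 counts as 2 of the 8 in each, the comparisons share arrays, and the naive signals of Nos2 and of both Acod1 probe sets were under the filter of 513, so that these entered the test through their treated arrays. The count of falls with ethanol was 0 without poly IC replicate 2, the array with the high ribosomal signal, and 0 with eBayes without the trend, and it was 2, both of Acod1, with no filter. Falls at an unadjusted limma p under 0.05 then numbered 4 without that array and 5 without the trend, as against 5 with all arrays and the trend. The part of the ribosomal signal in this was not tested.

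**Figure D3:**
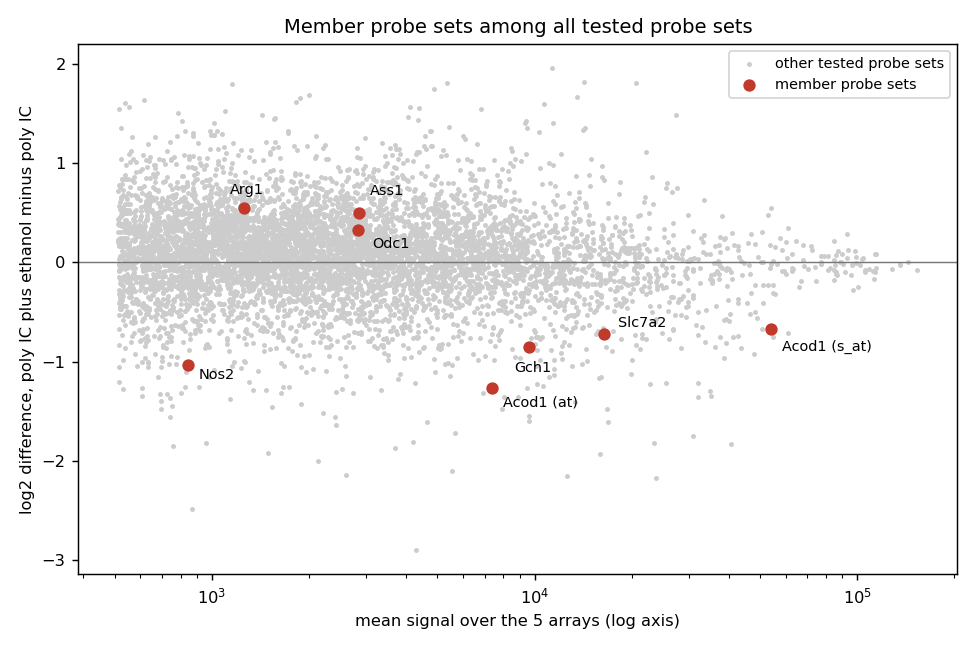
Log2 difference of poly IC plus ethanol minus poly IC (y axis) against the mean signal over the 5 arrays (log axis) for the 6675 tested probe sets in grey, with the 8 member probe sets in red. Both Acod1 probe sets, Gch1, Slc7a2 and Nos2 lie below 0, and Arg1, Ass1 and Odc1 lie above 0.

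**Figure D4:**
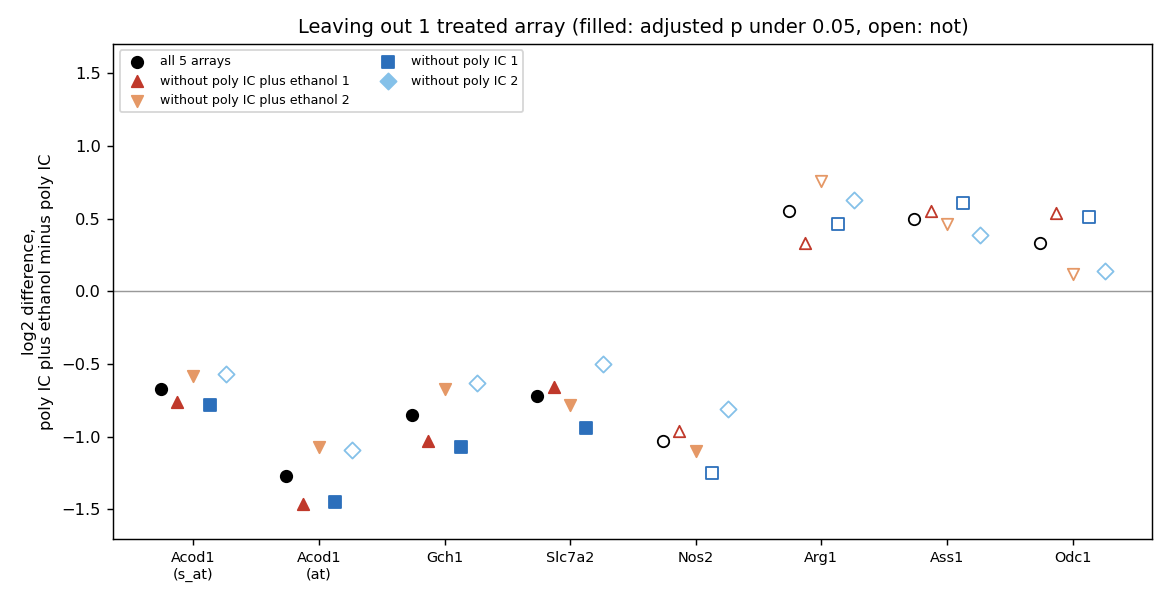
Log2 difference of poly IC plus ethanol minus poly IC (y axis) for the 8 probe sets with all 5 arrays and with each treated array left out; filled symbols had an adjusted p under 0.05. Signs are the same in all 5 fits, and without poly IC replicate 2 no symbol is filled.

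Other genes of the same pathways were taken from 4 lists by textbook role, 63 genes in all, of which 43 had a probe set and 31 were tested, each by its brightest probe set. With poly IC plus ethanol against poly IC, 2 of the 31 fell and none rose, near the 4.15% called lower and 4.84% called higher among all tested probe sets, and the median of 0.07 was the same as over all. They were Arg2, the mitochondrial arginase, and Srm, spermidine synthase. Nearest to the threshold among those not called were Sdhd, of the itaconate list (0.66, adjusted p = 0.0546), and Slc25a15 and Gatm, of the arginine list (0.81, adjusted p = 0.0612, and -0.59, adjusted p = 0.0706). Sdhd and Slc25a15 thus read higher with ethanol and Gatm lower. Arg2 read 2985 and 2482 with poly IC plus ethanol, 5821 and 4424 with poly IC and 149.7 on the naive array, below the unspiked control. That naive signal was also under the filter of 513, so Arg2 entered the test through its treated arrays. It fell by 0.84 log2 units with ethanol (SE 0.20, adjusted p = 0.0335), and it rose at least 16.8-fold over naive with poly IC (adjusted p = 5.6e-06) and at least 9.02-fold with poly IC plus ethanol (adjusted p = 4.39e-05). The order of Arg2 was thus that of Acod1 and not that of Arg1. A second probe set for Arg2 did not pass the filter, with 258.6 and 456.5, 447.4 and 65.6, and 67 in the same group order. Srm read 2159 and 2863 with poly IC plus ethanol, 5866 and 5952 with poly IC and 2085 on the naive array. It fell by 1.17 log2 units with ethanol (SE 0.18, adjusted p = 0.00648), on a probe set whose suffix marks probes shared within a gene family. The Arg2 fall was not called without poly IC replicate 1 (-0.65) or replicate 2 (-1.03). Nor was it called with no filter (adjusted p = 0.097) or with eBayes without the trend (adjusted p = 0.0976). The Srm fall was not called without poly IC replicate 2 (-1.16) or with eBayes without the trend.

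With poly IC against naive, 7 of the 31 pathway genes rose and 8 fell, with a median of -0.08 where all tested probe sets had -0.14. Among all tested probe sets 11.4% were called higher and 18.7% lower, and the counts by list, each over few genes, stand beside those shares. Among 9 tested arginine, citrulline and ornithine genes 3 rose and 1 fell. Beside Arg2, Slc7a7, the light chain of a carrier that exchanges cationic amino acids, rose by 1.24 (SE 0.22, adjusted p = 0.00271), and Slc25a15, the mitochondrial ornithine carrier, fell by 1.21 (SE 0.28, adjusted p = 0.011). Among 5 polyamine genes 2 rose and none fell. They were Srm (1.40, SE 0.22, adjusted p = 0.00144) and Azin1 (0.69, SE 0.17, adjusted p = 0.0152), an inhibitor of the antizymes that mark ornithine decarboxylase for breakdown. Among 6 nitric oxide and tetrahydrobiopterin genes none rose and 4 fell. Pts, the enzyme after Gch1 in cofactor synthesis, read 3934 and 3005 with poly IC plus ethanol, 2923 and 2299 with poly IC and 6038 on the naive array. It fell by 1.14 log2 units with poly IC (SE 0.24, adjusted p = 0.00621), where Gch1 rose. Dynll1, a dynein light chain also described as binding neuronal nitric oxide synthase, fell by 0.95 (SE 0.14, adjusted p = 0.0011), on a probe set of shared probes.

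Among 11 genes of itaconate formation, breakdown and targets 2 rose and 3 fell with poly IC against naive. Nfe2l2, the antioxidant transcription factor that itaconate is known to release, rose by 1.96 (SE 0.16, adjusted p = 2.36e-05), and the stress factor Atf3 by 2.20 (SE 0.15, adjusted p = 5.86e-06). The Atf3 value is from a probe set of shared probes. Another tested Atf3 probe set rose by 1.955 (SE 0.188, adjusted p = 6.96e-05), and a further one, under the filter, read only 37 to 72.3 over the arrays. Sdha and Sdhd, subunits of the succinate dehydrogenase that itaconate blocks, fell by 0.85 (SE 0.25, adjusted p = 0.0301) and by 0.84 (SE 0.22, adjusted p = 0.0184). The other subunits of that enzyme were not called, with -0.49 for Sdhb (SE 0.17, adjusted p = 0.0596) and -0.08 for Sdhc (SE 0.17, adjusted p = 0.761). With poly IC plus ethanol against naive 6 of the 31 rose and 2 fell, Sdha (adjusted p = 0.0265) and Dynll1 (-0.90, SE 0.14, adjusted p = 0.00259), with a median of -0.13 against -0.09 over all. Among all tested probe sets 7.96% were called higher and 7.45% lower, so the falls were near that share. Among the rises of that comparison were Slc7a7 (1.10, SE 0.22, adjusted p = 0.00925), Azin1 (0.89, SE 0.17, adjusted p = 0.00782), Nfe2l2 (1.64, SE 0.16, adjusted p = 0.000121) and Atf3 (1.94, SE 0.15, adjusted p = 1.88e-05). The Slc7a7 call was lost with eBayes without the trend (adjusted p = 0.0616, in a range from 8.89e-07), and the Sdha call with no filter (adjusted p = 0.0944, in a range from 0.00791). For poly IC against naive, without poly IC replicate 1 the calls of Azin1 (0.63), Sdha (-0.98) and Sdhd (-0.87) were lost, and without replicate 2 those of Azin1 (0.74), Sdha (-0.73), Sdhd (-0.81) and Slc25a15 (-1.04). The count of called pathway genes was then 9 and 8. With median-centred arrays Sdha (-0.66, adjusted p = 0.0784) and Sdhd (-0.65, adjusted p = 0.0735) were not called, in ranges of 0.00365 to 0.151 and 0.00016 to 0.0791.

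**Figure D5:**
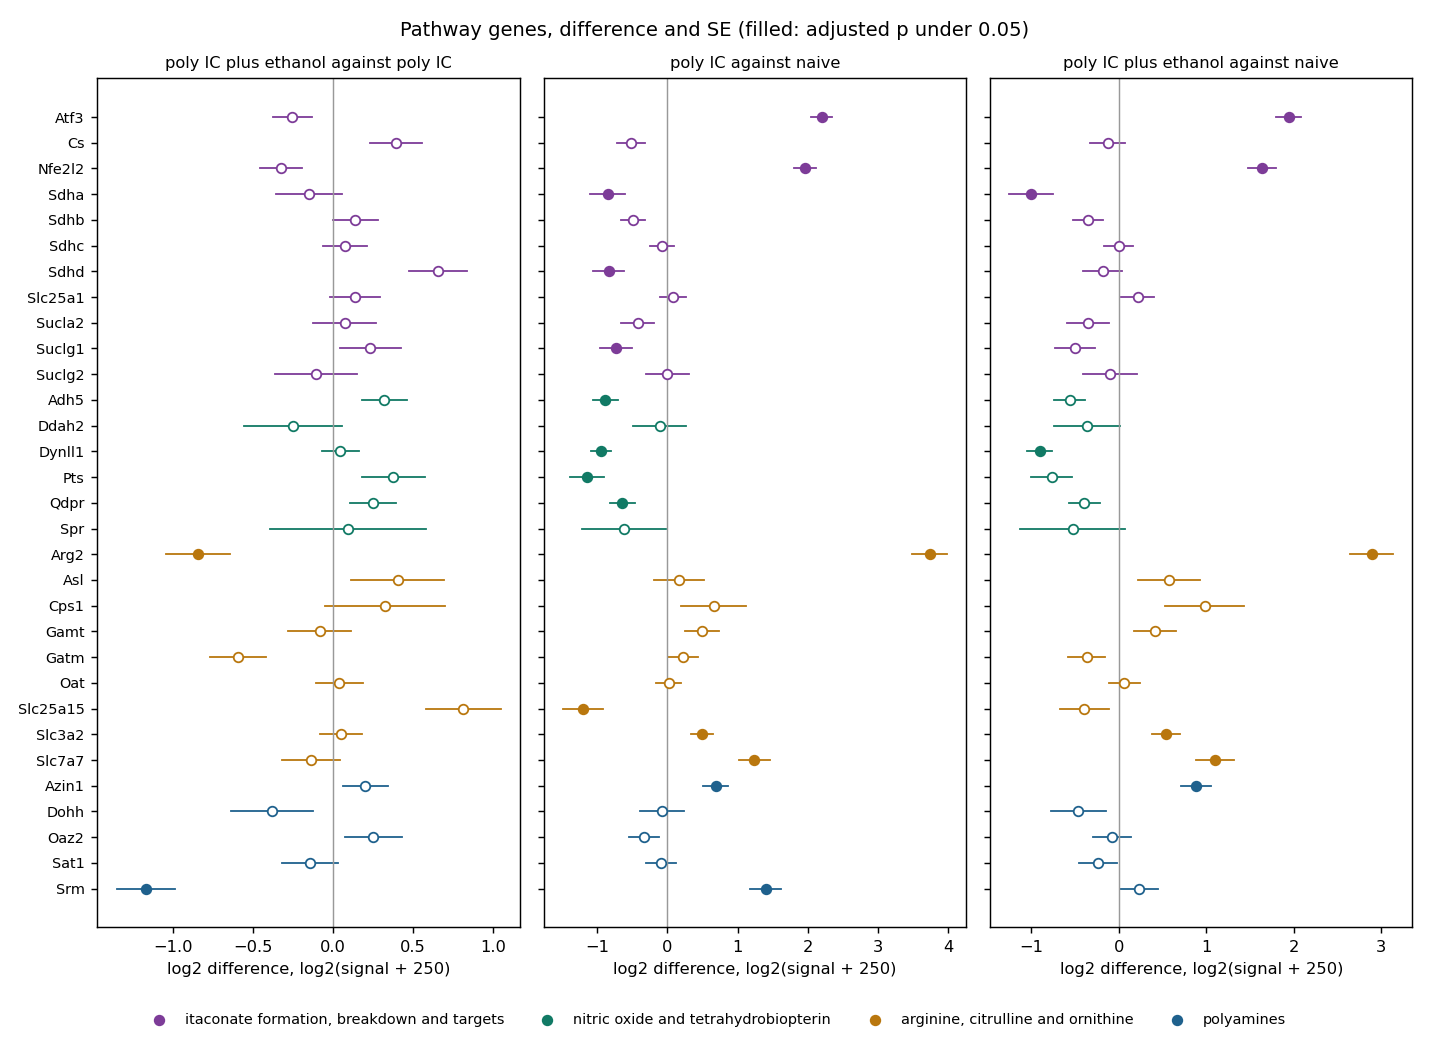
Log2 differences on the log2(signal + 250) scale (x axis) with SE for the 31 tested pathway genes in the 3 comparisons, coloured by list; filled points had an adjusted p under 0.05. Arg2, Atf3, Nfe2l2 and Srm are the farthest right for poly IC against naive, and Arg2 and Srm are the filled points for ethanol against poly IC.

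Genes with the most similar course over the 5 arrays were found by the root mean square (RMS) difference between log2 profiles, each centred on its own mean, among 5581 genes; the measure describes 5 arrays and carries no test. For Acod1 on the s_at probe set they were the chemokine genes Ccl4 (0.066, where the deviation of Acod1 from its own mean was 2.86) and Cxcl10 (0.214). On the naive array Acod1, Ccl4 (96.5) and Cxcl10 (34.6) were all below the unspiked control of 301.9, where the offset of 250 sets most of the value, so these differences and their order rest on it. The same holds for the naive values of Nos2 and Gadd45b (239). For Gch1 they were Il15ra, the receptor chain that presents interleukin-15 (0.128), and Ifi209 (0.138), and for Slc7a2 Ifi207 (0.184) and the stress gene Gadd45b (0.193), against own deviations of 1.01 and 1.58. Ifi207 and Ifi209 belong to a family of near-identical interferon-inducible genes, and the Ifi207 probe set has shared probes, so these names are uncertain. The Gadd45b probe set has shared probes as well. For Nos2 (own deviation 0.721) they were Ube2l6, the conjugating enzyme of the ISG15 modifier (0.137), and Ggct (0.142). Arg1 (own deviation 0.435) was nearest to Ltc4s, leukotriene C4 synthase (0.045), and to the integrin gene Itga6 (0.056). Ltc4s read 28145 and 21195 with poly IC plus ethanol, 14622 and 17923 with poly IC and 34426 on the naive array. Odc1 (own deviation 0.415) was nearest to Plxna1 (0.066) and Emid1 (0.072), and Ass1 (own deviation 0.241) to Emb (0.038) and the autophagy gene Atg12 (0.044).

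Markers of other cells moved with the same comparisons. As a yardstick for the counts below, ethanol against poly IC had 4.84% of the 6675 probe sets called higher and 4.15% lower. Poly IC against naive had 11.4% higher and 18.7% lower, and the ethanol arrays against naive had 7.96% and 7.45%. Each marker list had few tested genes, and whether its counts differ from these shares was not tested. The summed signal of 11 neutrophil markers on the array was 20488 and 20530 with poly IC plus ethanol, 104456 and 69636 with poly IC and 5728 on the naive array, the order also seen for Acod1, Gch1, Slc7a2, Nos2 and Arg2. On the treated arrays this sum was mostly S100a8 (10641 and 10209 with poly IC plus ethanol, 56818 and 40341 with poly IC) and S100a9. Of the 9 neutrophil markers tested, 3 fell with ethanol against poly IC (median -1.07) and 6 rose with poly IC against naive (median 2.07). Mpo was at or under the unspiked control on every array. On the naive array S100a9, Ly6g, Ngp, Ltf, Mmp8 and Cxcr2 were under the filter of 513, so these entered the test through their treated arrays. The counts and medians depend on that. Elane, which did not pass the filter, read 131.4 and 676.6, 229.2 and 796.8, and 726.3 in the same group order. Mmp9, which was tested, read 1239 and 934.1, 3580 and 1786, and 2723. Both ethanol arrays and poly IC replicate 2 were thus below naive for Mmp9, so not every neutrophil marker had the order of the sum. Summed signals of 7 B cell markers were 101666 and 105733 with poly IC plus ethanol, 73631 and 59510 with poly IC and 202966 on the naive array, and 3 of 6 tested rose with ethanol against poly IC while all 6 fell with poly IC against naive. The treated groups overlapped for Ms4a1, Pax5 and Cd22, the last with 5340 and 4241, 6119 and 4438, and 9867 in the same group order. Summed signals of 7 macrophage markers were 321870 and 301248 with poly IC plus ethanol, 313418 and 345939 with poly IC and 244209 on the naive array, with none of 7 called for ethanol against poly IC and, for poly IC against naive, 1 up and 1 down. The rise of this sum over naive was mostly that of Cd14, with 120787 and 122303, 126412 and 147435, and 47180 in the same group order. Csf1r and Mertk read lower on both poly IC arrays than on the naive array. Summed signals of 4 resident peritoneal macrophage markers were 127286 and 119349 with poly IC plus ethanol, 102607 and 115168 with poly IC and 128869 on the naive array, a sum made up mostly of Alox15. None of the 4 was called for ethanol against poly IC, and 1 was called lower in both comparisons with naive. That was Gata6, the transcription factor of resident peritoneal macrophages, with 1851 and 2188 with poly IC plus ethanol, 1169 and 1531 with poly IC and 7218 on the naive array. Summed signals of 3 erythroid markers were 19534 and 10491, 18325 and 34046, and 1144 in the same group order, and of 7 mast cell markers 32003 and 28687, 62026 and 35853, and 22262. Within the mast cell sum Hdc read 12709 and 11267, 28453 and 25488, and 2417. Cma1 read 9541 and 7843, 17658 and 4237, and 10450, and Cpa3 read 4166 and 3401, 6182 and 1584, and 4270. On poly IC replicate 2 Cma1 and Cpa3 were thus below naive, so the order of the sum was not that of every marker. Of 2 monocyte markers, whose sum of 96284 to 111006 was mostly Plac8, none was called for ethanol against poly IC and 1 was called lower in both comparisons with naive. That was the chemokine receptor gene Ccr2, with 2996 and 1899 with poly IC plus ethanol, 2061 and 970.3 with poly IC and 17139 on the naive array. Summed signals of 4 dendritic cell markers were 3997 and 4304 with poly IC plus ethanol, 3681 and 4194 with poly IC and 7535 on the naive array. Of the 3 tested, Ccr7 was called lower in both comparisons with naive (623.6 and 735.2, 892.4 and 970.9, and 3646 in the same group order). Summed signals of 7 T and NK cell markers lay between 3400 and 4546, of 3 mesothelial markers between 1044 and 1674 and of 2 eosinophil markers between 62 and 338. Both tested erythroid markers were called higher in both comparisons with naive. Hbb-b2 (374.3), which is among them, and Gzma (461.8) of the T and NK cell list were under the filter on the naive array. Both entered the test through their treated arrays. Of 5 tested mast cell markers 1 was called lower for ethanol against poly IC and 1 higher in each comparison with naive, and of 3 tested T and NK cell markers 1 was called higher for poly IC against naive. For poly IC plus ethanol against naive, 2 neutrophil markers and 1 macrophage marker were called higher and 4 B cell markers lower. The part of these markers in the differences of the 7 genes was not tested.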

How the data were processed

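RNA from mouse peritoneal macrophages was measured on 5 Affymetrix MG-U74Av2 arrays, 1 per sample, and samples were grouped by their titles. Per the labels, signals came from Microarray Suite 5.0 and statistics from Data Mining Tool 3.0. Deposited values are intensities, 1 linear signal per probe set, scaled by the authors to a target of 2500, per the labels; the 2% trimmed means were 2501.5 to 2502. Such scaling hides broad changes in RNA content.

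Of 12488 probe sets, 66 were controls, 396 named several genes and 1193 none listed; 10833 had 1 symbol, 10817 of them updated by Entrez ID through RefSeq GRCm38.p6. Those with a mean signal of at least 513, the 40th percentile, were tested singly (6675). In R 4.3.3, limma 3.58.1 took log2(signal + 250) with 1 mean per group, eBayes with trend (2 residual and 7.2 prior degrees of freedom), two-sided. The script was tested on simulated data. Where the naive signal was below the unspiked control, the bound is the geometric mean of the higher group over that control. It allows for the dim naive signal only and takes no account of the spread between arrays. Pathway genes were read from their brightest probe set. Every probe set of the 7 genes was named, and in each comparison up to 2 called rises and 2 called falls of each pathway list, by size, and for each gene the 2 nearest profiles. Alternatives varied the offset, filter, scaling, trend, probe set choice, arrays in the fit, replicate block and arrays left out. Genes, lists and tests were chosen with earlier results of these data known. Figures used matplotlib 3.10.9.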

Additional observations from a re-analysis of the deposited data

How the results depend on the processing

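Of 327 differences of the 8 probe sets recomputed under the alternatives, 297 kept their direction and their side of the threshold, 19 lost a call, 9 gained one and 2, both of Ass1 and neither called, changed sign. Of 280 for the named pathway genes, 259 kept both and 21 lost a call. The called members numbered 4 for poly IC plus ethanol against poly IC, but 2 with no filter on dim probe sets and 0 with eBayes without the trend, and 0 to 5 when 1 array was left out. The called pathway genes of that comparison numbered 2, but 1 with no filter, 5 with the 60th percentile filter, 0 with eBayes without the trend, and 0 to 4 when 1 array was left out. For poly IC against naive, leaving out 1 array gave 8 to 17 called pathway genes (15 with all arrays) and 4 to 7 members (6), and for poly IC plus ethanol against naive 7 to 10 (8) and 5 in each fit (5). Over all probe sets, 600 were called for ethanol against poly IC (1649 had an unadjusted p under 0.05), but 280 with no filter and 90 with eBayes without the trend, and 118 to 1165 when 1 array was left out. The count was 2005 for poly IC against naive, 1277 to 2684 with 1 array left out, and 1028 for poly IC plus ethanol against naive, 623 with eBayes without the trend and 799 to 1717 with 1 array left out. The causes were not tested. Centring arrays on their medians gave 180 higher and 330 lower calls for ethanol against poly IC (323 and 277 as deposited), 982 and 825 for poly IC against naive (758 and 1247), and 567 and 331 for poly IC plus ethanol against naive (531 and 497). Poly IC against naive shifted the median of all probe sets by -0.137.

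The groups share the numbers 1 and 2, but nothing in the labels says that these mark pairs, and the replicate differences of the treated groups correlated at r = 0.0308 across probe sets. With the number as a replicate block, 767, 2164 and 1220 probe sets were called for ethanol against poly IC, poly IC against naive and poly IC plus ethanol against naive, with 4, 6 and 5 members, and 5 pathway genes for ethanol against poly IC. Signals of Nos2 and Acod1 on the naive array were below the unspiked control, which limits their folds to bounds.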
